A study of Mus musculus with 5 samples.

Results

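The genes described here make or load MHC class I, the surface complex that shows peptides from inside a cell to CD8+ T cells, and 10 of them were chosen by symbol from the 53700 gene identifiers of the count table. They are H2-K1 and H2-D1 (the classical heavy chains), B2m (the light chain), Tap1 and Tap2 (the peptide transporter), Tapbp (tapasin, which holds empty class I beside the transporter), Psmb8, Psmb9 and Psmb10 (the catalytic subunits of the immunoproteasome) and Nlrc5 (a transactivator of class I genes). RNA was taken from midbrain of C57BL/6 mice aged 4 months by BAC-TRAP, in which a GFP-tagged ribosomal protein L10a is switched on by Cre and ribosome-bound RNA is pulled down with anti-GFP antibody. Every mouse in both groups carried the L10a transgene and received AAV:THCre, a virus that drives Cre from a tyrosine hydroxylase promoter, so that tagging and, in the floxed animals, loss of Esrrg depended on the same injection 1 month earlier. Esrrg encodes the nuclear receptor ERRγ. There were 3 libraries of the Esrrg WT genotype (numbered 2, 3 and 4) against 2 of the Esrrg Flox genotype (numbered 2 and 4), and midbrains were pooled for each.

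Peptides cut by the proteasome are carried into the endoplasmic reticulum by the TAP transporter and are loaded there onto a heavy chain paired with β2-microglobulin. Interferons raise these genes together, through interferon regulatory factors and, for the class I promoters, through NLRC5, and in the immunoproteasome PSMB8, PSMB9 and PSMB10 take the places of PSMB5, PSMB6 and PSMB7. In brain, class I is known to be prominent in microglia and endothelial cells and low in most resting neurons. The comparison of Flox with WT asks which ribosome-bound transcripts of midbrain dopaminergic (DAergic) neurons differ when Esrrg is deleted.

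On the mouse genome (GRCm38, GENCODE M21) 7 of the 10 genes lie on chromosome 17, with Psmb9, Tap1, Psmb8 and Tap2 side by side between 34181987 and 34216321, Tapbp and H2-K1 to one side and H2-D1 to the other. B2m is on chromosome 2, and Psmb10 and Nlrc5 are on chromosome 8. Upstream sequence was held for 8 of the 10 genes by the RefSeq promoter table used here, and 4 windows are shown because they hold the elements by which class I genes are usually recognised, or, for Tap1, because the same DNA serves Psmb9 on the other strand. Each is the 250 bases before the RefSeq start, 5′ to 3′ on the gene's strand (GRCm38.p6): chr17:34000348-34000597 on the minus strand for H2-K1 (the first of 2 starts listed), chr17:35262844-35263093 on the plus strand for H2-D1, chr2:122147437-122147686 on the plus strand for B2m and chr17:34187306-34187555 on the plus strand for Tap1. Capitals mark a match, on either strand, to an interferon regulatory factor core (AANNGAAA), to the κB consensus or to a CCAAT box (CCAAT).
H2-K1: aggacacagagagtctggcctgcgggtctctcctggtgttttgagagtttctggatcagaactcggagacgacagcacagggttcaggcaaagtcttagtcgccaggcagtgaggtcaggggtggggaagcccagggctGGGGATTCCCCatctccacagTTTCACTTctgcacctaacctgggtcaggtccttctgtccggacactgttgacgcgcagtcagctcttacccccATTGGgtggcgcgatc
H2-D1: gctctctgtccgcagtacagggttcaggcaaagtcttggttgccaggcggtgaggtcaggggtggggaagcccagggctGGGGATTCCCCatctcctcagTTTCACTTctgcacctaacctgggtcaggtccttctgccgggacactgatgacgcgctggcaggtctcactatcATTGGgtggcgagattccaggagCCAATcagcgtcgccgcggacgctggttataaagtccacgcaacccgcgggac
B2m: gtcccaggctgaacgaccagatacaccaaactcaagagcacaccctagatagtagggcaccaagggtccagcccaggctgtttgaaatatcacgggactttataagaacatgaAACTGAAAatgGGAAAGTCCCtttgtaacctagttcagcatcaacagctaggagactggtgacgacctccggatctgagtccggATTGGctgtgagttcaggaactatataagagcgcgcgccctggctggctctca
Tap1: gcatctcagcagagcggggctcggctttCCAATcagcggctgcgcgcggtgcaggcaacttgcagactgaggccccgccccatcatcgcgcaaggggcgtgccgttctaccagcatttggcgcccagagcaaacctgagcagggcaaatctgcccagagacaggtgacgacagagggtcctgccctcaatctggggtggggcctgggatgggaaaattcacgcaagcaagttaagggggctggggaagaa

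The H2-K1 and H2-D1 windows were 87.9% identical over 190 aligned bases, and both held overlapping κB matches directly upstream of an interferon regulatory factor core. In B2m the order was the opposite, the core beginning 137 bases and the κB match 126 bases before the start. The core was present in 3 of the 8 member windows (H2-K1, H2-D1 and B2m) and in 21.6% of all 27025 windows, and the κB consensus was present in the same 3 windows and in 7.01% of all windows. A CCAAT box was found in 6 of 8 member windows against 34.5% of all. The half-site bound by estrogen-related receptors (AAGGTCA) was found in 1 member window, that of Psmb10, against 4.05% of all, and the interferon-γ activated element (TTCNNNGAA) in 1, that of Psmb8, against 7.18%. The Tap1 and Psmb9 windows shared 225 bases, among them their CCAAT box, so that the same element was counted for both genes. These are matches of letters and not measured binding.

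The libraries held between 20635855 and 23105058 counts assigned to genes, so that 3 counts corresponded to 0.130 to 0.145 CPM, the count scaled to library size. Esrrg itself had 1763, 1643 and 1726 normalized counts in WT and 1504 and 1170.1 in Flox, both Flox libraries lying below every WT library (difference -0.35 ± 0.13 SE on the log2 scale, DESeq2 adjusted p = 0.0753). These counts cover the whole gene. Per the paper, the floxed part is the exon for the DNA-binding domain, and splicing analyses showed its loss in these samples. Reads from the other exons of Esrrg can still be counted, so the whole-gene difference does not measure the extent of deletion. All 12 DAergic neuron markers on the list were detected in every library, and their summed level was 2397 to 2770 CPM in WT and 2391 and 2432 in Flox. Transcripts of glia were abundant in the same pulldowns, 8 oligodendrocyte markers summing to 5134 to 7362 CPM in WT and 5726 and 6591 in Flox. Less RNA per cell and fewer cells of a type cannot be told apart in such bulk samples.

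Class I and immunoproteasome transcripts were not called different between the groups. DESeq2 called 0 of 10 members (called meaning a change of 1.5-fold or more with an adjusted p below 0.05), by a rule that called 1.77% of the 15724 genes tested higher and 1.41% lower, and 0 members had an unadjusted p under 0.05. The estimates were nevertheless all above 0, with log2 fold changes from 0.31 (Nlrc5) to 0.96 (H2-K1), a median of 0.61 over the members against -0.0063 over all genes tested, and adjusted p-values from 0.338 to 0.668. What separated the libraries was a single one: Flox replicate 4 was the highest of the 5 in 10 of 10 members, as it was in 29.5% of all genes tested, while Flox replicate 2 lay inside the WT range in 9 of 10. In no member did both Flox libraries exceed every WT library, which 19.9% of all genes tested did.

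H2-K1 had 5654, 4059.9 and 3289.7 normalized counts in WT replicates 2, 3 and 4, and 4741 and 12085 in Flox replicates 2 and 4. Flox replicate 2 therefore fell between the WT libraries, and Flox replicate 4 was 2.14 times the highest of them. The fitted difference was 0.96 on the log2 scale (SE 0.56, DESeq2 adjusted p = 0.338).

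For H2-D1, the other classical heavy chain, the normalized counts were 8695, 6699 and 6749 in WT and 6993 and 16695 in Flox. The lower Flox value again sat inside the WT range and the higher one outside it (difference 0.68 ± 0.47 SE on the log2 scale, DESeq2 adjusted p = 0.454). B2m, the light chain shared by all class I molecules, had 13225, 10739.8 and 10986 normalized counts in WT and 10137 and 20097 in Flox. It was the only member in which Flox replicate 2 was below every WT library, so that the Flox libraries lay on opposite sides of the WT range (difference 0.38 ± 0.38 SE on the log2 scale, DESeq2 adjusted p = 0.662).

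The peptide-loading genes followed the heavy chains. Tap1, one chain of the transporter, had 1129, 931 and 595 normalized counts in WT and 719 and 1967 in Flox. Tap2, the other chain, had 723, 625 and 452 in WT and 637 and 1419.6 in Flox. In both genes WT replicate 4 was the lowest library and Flox replicate 4 the highest, with differences of 0.60 (SE 0.60) and 0.78 (SE 0.48) log2 units and DESeq2 adjusted p-values of 0.659 and 0.371. Tapbp had 2156, 1922 and 1251 normalized counts in WT and 1927 and 3508 in Flox (difference 0.61 ± 0.42 SE on the log2 scale, DESeq2 adjusted p = 0.452). The spread among the WT libraries was itself wide here, the highest being 1.90 times the lowest for Tap1 and 1.72 times for Tapbp.

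Among the immunoproteasome subunits, Psmb9 (the caspase-like position) had the widest range, with 661, 571 and 324 normalized counts in WT and 489.9 and 1351 in Flox. Psmb8 (the chymotrypsin-like position) had 1021, 834 and 624 in WT and 799 and 1683 in Flox. Psmb10 (the trypsin-like position) had 4245, 4079 and 3350.2 in WT and 3968 and 7040.3 in Flox. All 3 subunits had Flox replicate 2 inside the WT range and Flox replicate 4 above it. Their log2 fold changes were 0.83 (SE 0.64), 0.59 (SE 0.46) and 0.50 (SE 0.33), with DESeq2 adjusted p-values of 0.529, 0.535 and 0.419. Nlrc5 was the least abundant member, with 140, 152 and 88.4 normalized counts in WT and 110 and 205 in Flox (difference 0.31 ± 0.32 SE on the log2 scale, DESeq2 adjusted p = 0.668).

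**Figure D1:**
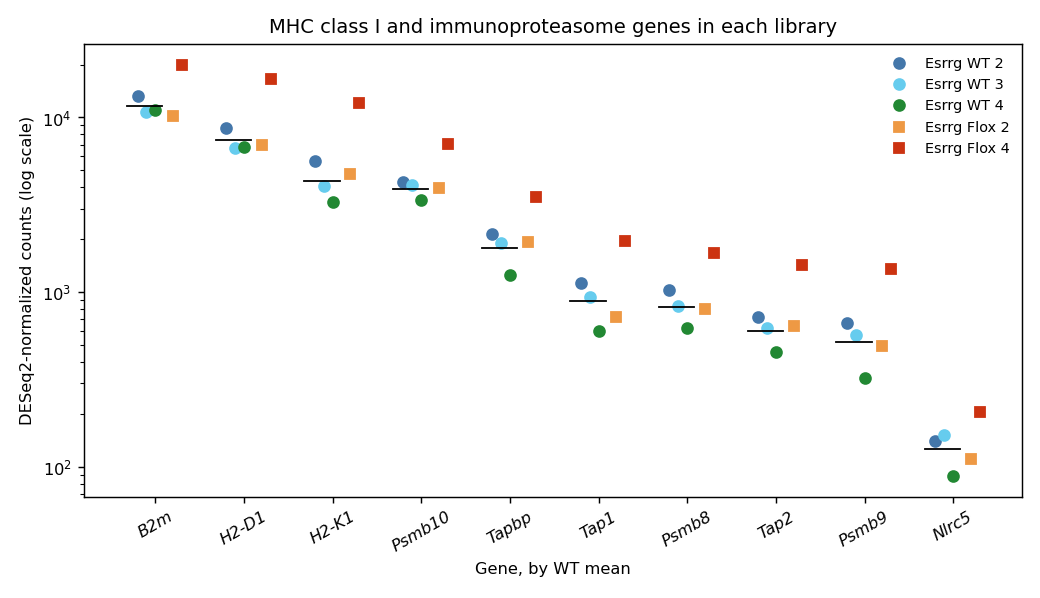
DESeq2-normalized counts (log axis) of the 10 genes in each of the 3 Esrrg WT (circles) and 2 Esrrg Flox (squares) libraries, with the WT mean as a black line. Flox replicate 4 is the highest point for every gene, and Flox replicate 2 sits among the WT points for all genes but B2m.

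The excess in Flox replicate 4 was present in every member and varied in size. Relative to the WT mean it ranged from 1.62 times (Nlrc5) to 2.79 times (H2-K1), with a median of 2.13, against a median of 0.991 over all genes tested. In Flox replicate 2 the same ratio ranged from 0.812 (Tap1) to 1.09 (H2-K1), with a median of 0.957, against 0.991 over all genes tested. The WT libraries were also ordered: WT replicate 4 was the lowest of the 5 libraries in 8 of 10 members, the exceptions being H2-D1 and B2m, and in 23.4% of all genes tested. The median member stood at 0.31, 0.08 and -0.38 log2 units from the WT mean in WT replicates 2, 3 and 4.

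The outcome turned on which Flox library was kept. Without Flox replicate 2, 6 of 10 members were called higher (H2-K1, H2-D1, B2m, Tap2, Psmb8 and Psmb10), where the rule called 3.01% of genes higher, and the median log2 fold change was 1.09; the remaining Flox library was assumed to vary like the WT libraries. Without Flox replicate 4, 0 members were called or had an unadjusted p under 0.05 in DESeq2, 6 of 10 changed sign to lower in Flox, and the median was -0.066. For H2-D1, for example, the log2 fold change was 1.18 (SE 0.16) without Flox replicate 2 and -0.081 (SE 0.16) without Flox replicate 4. Leaving out any WT library gave 0 calls.

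**Figure D2:**
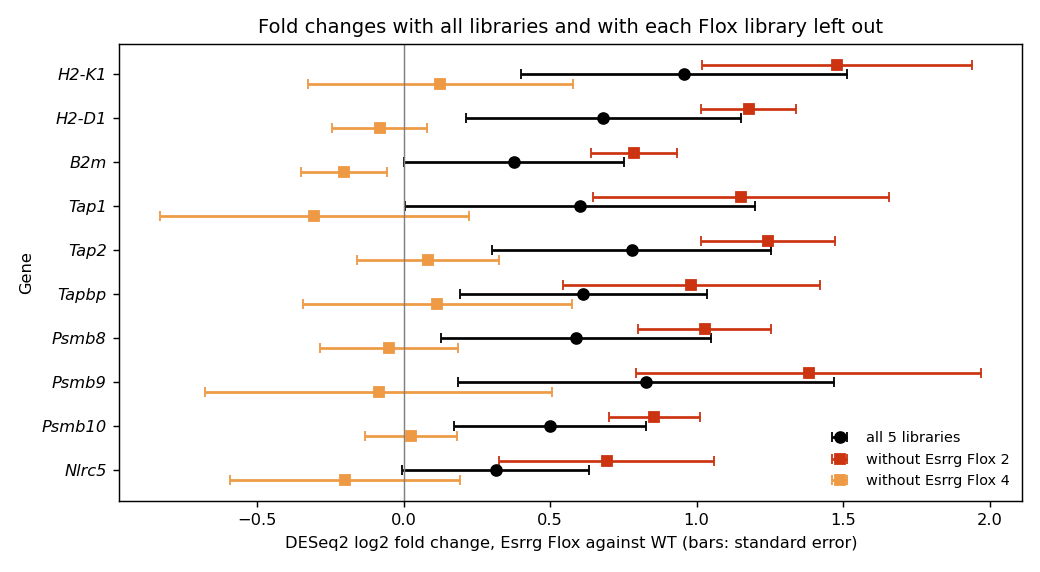
DESeq2 log2 fold change of Esrrg Flox against WT for each gene (points, with standard errors as bars), with all 5 libraries, without Flox replicate 2 and without Flox replicate 4. Estimates with all libraries lie between 0.31 and 0.96, and without Flox replicate 4 they lie between -0.30 and 0.13.

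The call also depended on the test. The edgeR quasi-likelihood test without a filter on low counts gave an adjusted p under 0.05 for 8 of 10 members and called 6 of them higher at a fold change of at least 1.5 (H2-K1, H2-D1, Tap1, Tap2, Tapbp and Psmb9), against 1.93% of 29407 genes, the smallest adjusted p being 7.85e-05 for H2-K1. After that result was seen, 5 further edgeR settings were run, with a low-count filter, with robust estimation or with both, and none of the 10 members passed an adjusted p of 0.05 in any of them (lowest 0.134, highest 0.729), although between 0 and 5 members had an unadjusted p under 0.05. These settings called 0.607%, 0.908%, 0.664%, 0.91% and 1.86% of genes higher. limma voom called 0 members, with 3 at an unadjusted p under 0.05. The fitted fold changes hardly differed between DESeq2 and the unfiltered edgeR fit (medians 0.61 and 0.60). DESeq2 kept the dispersion estimated from the gene's own counts for 9 of 10 members, 0.0615 to 0.236, where its trend over all genes gave 0.0070 to 0.0122 for the same genes.

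Per unit of transcript length (counts divided by exon length and scaled to a common total, as in TPM), the WT levels fell in the order B2m (1992 ± 251, SD, n = 3), H2-D1 (421 ± 68.9), Psmb10 (336 ± 47.6), H2-K1 (217 ± 63.3), Tapbp (72.2 ± 20.3), Psmb8 (36.0 ± 9.21), Tap1 (23.8 ± 7.64), Tap2 (23.4 ± 5.74), Psmb9 (20.9 ± 7.34) and Nlrc5 (2.20 ± 0.63). Neighbours whose WT ranges overlapped were Psmb10 and H2-K1, and the run from Psmb8 through Tap1 and Tap2 to Psmb9. The light chain thus exceeded the summed heavy chains in every library on this scale. The ratio of H2-K1 plus H2-D1 to B2m was 0.293 to 0.344 in WT, and 0.367 and 0.453 in Flox replicates 2 and 4. Here both Flox libraries lay above the WT range, unlike the levels themselves. In Flox replicate 2, B2m was at its lowest of the 5 libraries, while H2-K1 and H2-D1 lay inside their WT ranges. How often other ratios of genes separate the groups was not counted.

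Each immunoproteasome subunit was next set against the constitutive subunit whose place it takes. Psmb8 stood at 0.069 to 0.122 of Psmb5 in WT and at 0.087 and 0.149 in Flox replicates 2 and 4. Psmb9 stood at 0.029 to 0.065 of Psmb6 in WT and at 0.043 and 0.0998 in Flox. Psmb10 exceeded Psmb7 in every library, by 2.55 to 4.59 times in WT and by 5.41 and 9.19 times in Flox. Only this last ratio put both Flox libraries outside the WT range, and Psmb7 moved the other way from Psmb10, with 1989, 1784 and 2634 normalized counts in WT and 1472 and 1537 in Flox (difference -0.51 ± 0.16 SE on the log2 scale, DESeq2 adjusted p = 0.026). Psmb7 did not reach the fold of 1.5 with all libraries. It was called on dropping WT replicate 3 (-0.62, DESeq2 adjusted p = 0.0086). Dropping WT replicate 2 gave -0.56 (DESeq2 adjusted p = 0.0877), and dropping WT replicate 4 gave -0.33 (0.0782). Its adjusted p was 0.135 with limma voom and 0.0873 to 0.0959 in the 4 filtered edgeR settings. It was 0.0043 in the unfiltered edgeR test and 0.00021 in the robust unfiltered one. Fits that kept a single Flox library gave -0.54 (replicate 2 kept) and -0.48 (replicate 4 kept). Psmb5 (0.25, SE 0.12, DESeq2 adjusted p = 0.229) and Psmb6 (0.26, SE 0.11, adjusted p = 0.14) did not pass the test.

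**Figure D3:**
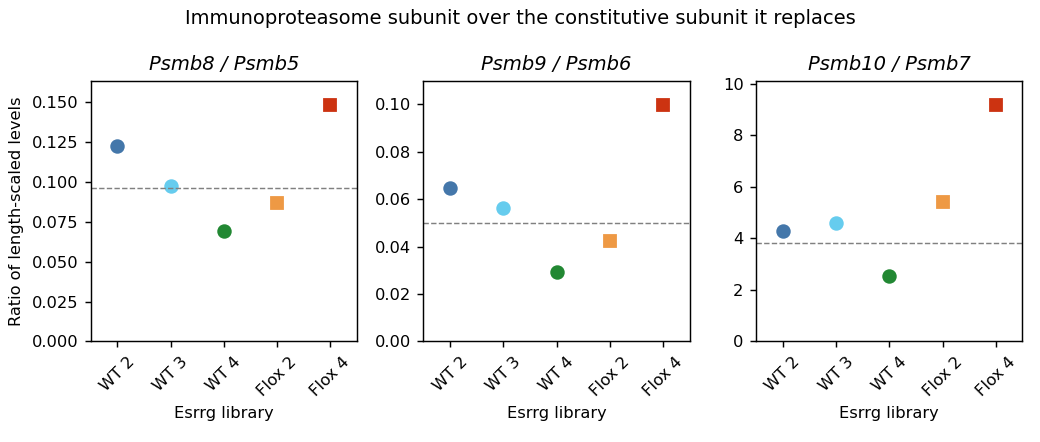
Ratio of the length-scaled level of each immunoproteasome subunit to that of the constitutive subunit it replaces, in each library (squares, Flox; circles, WT; dashed line, WT mean; axes start at 0). Flox replicate 4 is the highest in each panel, and Flox replicate 2 lies above all WT libraries only for Psmb10 over Psmb7.

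In the rest of the pathway, of 11 peptide loading and trimming partners 0 were called, with a median log2 fold change of 0.15. Calreticulin (Calr, -0.058, SE 0.092), calnexin (Canx, 0.21, SE 0.11), the disulfide isomerase Pdia3 (0.35, SE 0.13) and the trimming peptidase Erap1 (0.18, SE 0.21) had DESeq2 adjusted p-values of 0.816, 0.267, 0.0744 and 0.727. Of 5 proteasome activator and assembly genes, 2 passed an adjusted p of 0.05 without reaching the fold of 1.5, beside 4.2% of genes tested that passed in the higher and 4.05% in the lower direction. They were the PA28 subunit Psme2 (1815, 1757 and 1583 normalized counts in WT, 1948 and 2714 in Flox; difference 0.44 ± 0.15 SE on the log2 scale, DESeq2 adjusted p = 0.0423) and the assembly chaperone Pomp (0.42, SE 0.12, adjusted p = 0.0158). In Psme2 both Flox libraries were above every WT library, but its adjusted p was 0.934 in DESeq2 without Flox replicate 4, 0.0967 to 0.139 on dropping any single WT library, 0.167 with limma voom and 0.0890 to 0.105 in the 4 filtered edgeR settings. The adjusted p of Pomp was likewise 0.740 in DESeq2 without Flox replicate 4 and 0.0981 with limma voom. Psme1, the partner of Psme2, did not pass (0.35, SE 0.14, DESeq2 adjusted p = 0.0911). Of the other 11 subunits of the 20S core, 1 passed an adjusted p of 0.05 (Psma4, 0.41; DESeq2 adjusted p = 0.0174, and 0.626 without Flox replicate 4), 0 were called, and the median log2 fold change was 0.15.

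Among the other class I heavy chains, 14 of 15 listed genes had a count, 10 had an adjusted p and 0 were called, with a median log2 fold change of 0.45. Flox replicate 4 was the highest library in 10 of the 14. H2-T23, which encodes the nonclassical heavy chain Qa-1, had 3434, 2641 and 1612 normalized counts in WT and 2652 and 5769 in Flox (difference 0.72 ± 0.55 SE on the log2 scale, DESeq2 adjusted p = 0.526). Of the class I-like chains, 5 of 6 had a count and 0 were called; Fcgrt, the neonatal Fc receptor that also pairs with β2-microglobulin, passed an adjusted p of 0.05 below the fold of 1.5 (0.56, SE 0.17, DESeq2 adjusted p = 0.0198, and 0.704 without Flox replicate 4).

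Of 21 regulators of class I genes 0 were called, and their median log2 fold change was 0.04. Irf1, an interferon-induced activator of class I and immunoproteasome genes, had 785, 708 and 346 normalized counts in WT and 713 and 1532 in Flox. It had the members' order of libraries, WT replicate 4 lowest and Flox replicate 4 highest (difference 0.87 ± 0.60 SE on the log2 scale, DESeq2 adjusted p = 0.447). Irf8, a regulator of myeloid cells, had 220.2, 209.9 and 88.4 in WT and 345 and 596 in Flox, both Flox libraries above every WT library. It was not called by DESeq2 (difference 1.45 ± 0.58 SE on the log2 scale, adjusted p = 0.103), was called by the unfiltered edgeR test (adjusted p = 9.65e-07) and by none of the 5 other edgeR settings (adjusted p 0.0606 to 0.403), and was called by DESeq2 without WT replicate 4 (adjusted p = 0.00102).

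The 5 genes outside the set whose pattern over the 5 libraries was nearest to the members' median, among 12836 genes with a mean of at least 50 normalized counts, were Uba7, Ube2l6, Osmr, Gbp5 and H2-T23. Their root-mean-square distances were 0.109, 0.112, 0.131, 0.150 and 0.152 log2 units, against a median distance of 0.574 over all genes compared. Uba7 and Ube2l6 encode the activating and conjugating enzymes for ISG15, Gbp5 a guanylate-binding protein and Osmr an oncostatin M receptor chain. Uba7 had 73.7, 61.1 and 37.5 normalized counts in WT and 53.8 and 111 in Flox (difference 0.52 ± 0.41 SE on the log2 scale, DESeq2 adjusted p = 0.532). Distances over 5 libraries are a description.

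Markers of microglia, T lymphocytes and endothelial cells were also high in Flox replicate 4. Their list medians there stood 2.17, 2.88 and 1.78 log2 units above the WT mean. The medians of astrocyte and oligodendrocyte markers stood 0.17 and 0.16 above it. Flox replicate 4 was the highest library in 13 of 14 microglia, 10 of 10 T lymphocyte and 5 of 9 endothelial markers. It was the highest in 2 of 9 astrocyte and 1 of 8 oligodendrocyte markers, and in 29.5% of all genes tested. Of 14 microglia markers 11 were called higher, with a median log2 fold change of 1.69, and 13 of the 14 had both Flox libraries above every WT library. C1qa, a complement subunit made by microglia, had 627, 743 and 377 normalized counts in WT and 1598 and 4044 in Flox (difference 2.28 ± 0.58 SE on the log2 scale, DESeq2 adjusted p = 0.00367). Tyrobp and Trem2, signalling partners on the microglial surface, had differences of 2.09 (SE 0.34) and 2.05 (SE 0.33) log2 units, and the microglial genes Tmem119 and Cx3cr1 had 1.17 (SE 0.30) and 1.15 (SE 0.29), with DESeq2 adjusted p-values of 5.96e-07, 6.01e-07, 0.0038 and 0.00405. The summed microglia markers were 87.3 to 176 CPM in WT, 305 in Flox replicate 2 and 656 in Flox replicate 4. The summed class I and immunoproteasome genes were 1248 to 1732 in WT, 1389 in Flox replicate 2 and 2908 in Flox replicate 4. Microglia markers were therefore above WT in both Flox libraries and the members in Flox replicate 4 alone.

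T lymphocyte markers, among them Cd8a and Cd8b1, the chains of the receptor that reads class I, were called higher in 4 of 10 cases. An adjusted p was given for 7 of the 10. Cd8a had 8.43, 7.13 and 1.92 normalized counts in WT and 39.4 and 90.5 in Flox (difference 3.49 ± 0.64 SE on the log2 scale, DESeq2 adjusted p = 1.74e-05). The 2 other called markers were Ccl5 (2.18, SE 0.31) and Nkg7 (3.07, SE 0.70). The summed T lymphocyte markers were 5.80 to 10.1 CPM in WT and 21.5 and 40.5 in Flox, and only Cd3g was at 0 in a library. Of 7 class I receptors, 3 had an adjusted p, and Cd8a and Cd8b1 were the 2 called. Klrd1, Klrc1 and Klrk1 each had a library at 0. Endothelial markers were called in 3 of 9 cases (Cldn5, Flt1 and Slco1a4), summing to 13.2 to 23.3 CPM in WT and 25.0 and 44.2 in Flox.

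Of the 7 class II genes, whose products present peptides to CD4+ T cells, H2-Eb1 and H2-DMb1 were called higher. H2-Eb1 had 381, 293 and 154 normalized counts in WT and 818 and 2007 in Flox (difference 2.35 ± 0.66 SE on the log2 scale, DESeq2 adjusted p = 0.00916). The summed class II genes were 26.3 to 114 CPM in WT and 209 and 509 in Flox. Astrocyte (9), oligodendrocyte (8) and DAergic neuron (12) markers had 0 calls, with median log2 fold changes of -0.011, -0.017 and -0.17, and Th had -0.079 (SE 0.12, DESeq2 adjusted p = 0.81). In 5 of the 12 DAergic markers both Flox libraries were below every WT library. In 2 of the 12 both were above, as in 19.9% of all genes tested. The share of all genes with both below was not counted, so the 5 cannot be set against it. Ret, the GDNF receptor kinase, passed an adjusted p of 0.05 below the fold of 1.5. It had 5699, 5484 and 6156 normalized counts in WT and 4440.1 and 4312 in Flox (-0.40, SE 0.10, DESeq2 adjusted p = 0.00291). Over these lists 20 genes were called with all libraries. Without Flox replicate 4, the median log2 fold change was 1.06 for microglia, 1.76 for T lymphocyte and 0.65 for endothelial markers. It was 1.56 for class II genes, and each of these medians was lower than with all libraries. For the members it was -0.066. Calls for these lists in that fit are not given, since 1 Flox library is left and a gene without an adjusted p counts as not called. It is therefore not shown here that the calls in these lists stand without Flox replicate 4. The part of microglia, T lymphocytes and endothelial cells in the members' levels was not tested.

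**Figure D4:**
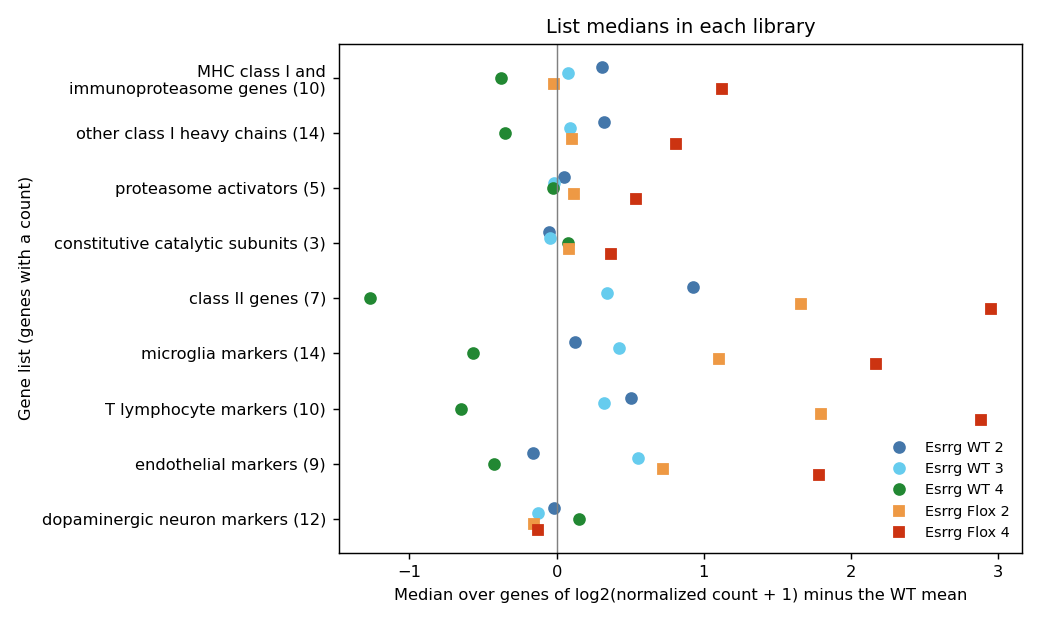
Median over each gene list of log2(normalized count + 1) minus the WT mean, in each library (circles, WT; squares, Flox; number of genes with a count in brackets). For the class I and immunoproteasome genes Flox replicate 2 is at -0.02 and Flox replicate 4 at 1.12, whereas for microglia markers they are at 1.11 and 2.17.

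Some of these counts share sequence with neighbours. The library protocol did not keep strand. Exons of Tapbp overlapped other genes over 29.0% of their length, those of Tap2 over 18.5% and of Psmb8 over 14.7%. For Psmb9, Tap1 and Nlrc5 the overlaps were 5.79%, 3.87% and 0.918%. Reads there cannot be told apart by strand, and Zbtb22, which overlaps Tapbp, lies on the same strand as Tapbp. Of all 100-base windows in the transcripts of H2-D1, 3.59% were also found in another gene, as were 0.957% of those of H2-K1, mostly in other class I heavy chains. The share was 14.8% for Tapbp, 8.05% for Psmb8, 4.99% for Tap2, 2.73% for Psmb9 and 1.93% for Tap1.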

How the data were processed

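The deposited table holds raw HTSeq counts per gene for 5 libraries, and every one of its sample columns was used. Per the study's methods, the authors sequenced non-stranded poly(A) libraries from pooled mice, trimmed reads with Trim Galore and aligned them with STAR to GRCm38.p6; the submitters' processing notes name GRCm39, STAR 2.7.9a and HTSeq 0.11.3, and the difference could not be resolved from the table. The HTSeq counting mode is not given in the sources used here. Rows that name no gene held 3.18 to 4.45% (no feature), 5.62 to 5.78% (ambiguous) and 3.60 to 4.23% (not unique) of reads per library and were left out. Symbols were matched for 97.0% of identifiers.

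DESeq2 1.42.0 (R 4.3.3; group only; Wald test, Benjamini-Hochberg over all genes; called at a fold change of at least 1.5 and adjusted p under 0.05) was the main test. Alternatives were edgeR 4.0.16, limma voom 3.58.1, TMM library sizes, a filter of at least 10 counts in at least 2 libraries, a replicate block and leaving out each library; 5 further edgeR settings were added after the data were seen. The fits were tested on simulated data. Members and gene lists were chosen with earlier results of these data known. Outside the 10 members, genes are named where called in a list (at most 5 by adjusted p) or from a set list of pathway genes, plus the 5 nearest in pattern; Pomp, Psma4, Fcgrt, Irf8 and Ret were named after their values were seen, and 1 gene of the set list is not reported here. Nothing in the labels says that the libraries come from separate pools, so p-values measure the spread between these libraries; counting floors cover counting error only.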

Additional observations from a re-analysis of the deposited data

How the results depend on the processing

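The 10 members had the same direction and 0 calls with TMM library sizes, a low-count filter, limma voom, the 5 edgeR settings added after the data were seen and on dropping any single WT library. The number of members called was 6 with unfiltered edgeR and 0 to 6 over the fits that left out a library (6 without Flox replicate 2). Over those fits the direction reversed in 8 of the named genes reported here, 7 of them on dropping Flox replicate 4: log2 fold changes ranged from -0.081 to 1.18 for H2-D1, -0.20 to 0.79 for B2m, -0.30 to 1.15 for Tap1, -0.050 to 1.03 for Psmb8, -0.085 to 1.38 for Psmb9, -0.20 to 0.69 for Nlrc5 and -0.021 to 0.35 for Erap1, the highest values coming on dropping Flox replicate 2. Th ranged from -0.16 to 0.026, positive only on dropping WT replicate 4. Over all genes DESeq2 called 500; the number was 852 with unfiltered edgeR, 844 with robust unfiltered edgeR, 180 and 293 after filterByExpr (standard and robust), 203 and 294 with the low-count filter (standard and robust), 26 with limma voom and 1297 with no fold threshold. Leaving out a library gave 48 to 897 (266 without WT replicate 2, 212 without WT replicate 4, 897 and 48 on dropping Flox replicates 2 and 4). Of genes on the other lists 20 were called, against 39 with unfiltered edgeR. The number was 12 and 5 after filterByExpr, 12 and 5 with the low-count filter and 1 with limma voom. Without WT replicates 2, 3 and 4 it was 12, 18 and 9. A gene without an adjusted p in a fit counted as not called. The cause was not tested.

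Replicates 2 and 4 occur in both groups, and the labels give no pairing beyond the number. Deviations of same-numbered libraries from their group means correlated at 0.153 and 0.126 over 12846 genes. With 2 Flox libraries, the deviations of one mirror those of the other. These correlations are therefore not separate evidence and cannot settle whether same-numbered libraries are paired. With the replicate block DESeq2 called 231 genes in all, 7 of the other lists and 0 members (median log2 fold change 0.54, adjusted p 0.785 to 0.937). The block also brought Psmb7 past the fold of 1.5 (-0.61, adjusted p = 0.00815 in DESeq2) and took Psme2, Pomp, Psma4 and Fcgrt to adjusted p-values of 0.170, 0.0733, 0.0959 and 0.361. With 2 Flox libraries, a difference that only 1 of them shows cannot be told apart from variation between libraries.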
